A study of Mus musculus with 7 samples.

Results

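Cirbp and Rbm3, the genes of the 2 cold-inducible RNA-binding proteins, were examined in RNA-seq of the cervical spinal cord of 8-week-old mice. The 2 genes were found by their GENCODE symbols among the 55487 genes of the count table, and both were selected on earlier results of these libraries, namely on their level in each library and on their co-variation with heat shock genes. Those values are therefore given as descriptions without a test. There were 4 libraries from Neat1-KO; hSOD1G93A mice, which lack both working copies of the long noncoding RNA Neat1, and 3 from Neat1-WT; hSOD1G93A mice, which carry it intact. All 7 mice carried the hSOD1G93A transgene, a mutant human superoxide dismutase used as a model of amyotrophic lateral sclerosis, so that mice without the transgene are not part of the comparison. The Neat1 knockout is present in every cell of the animal, and each library was prepared on its own from whole cord tissue, in which fewer cells of a type and less RNA per cell cannot be told apart. The libraries are named here by genotype and by the replicate number of their label, which runs from 1 to 4 in Neat1-KO and from 2 to 4 in Neat1-WT, and values are listed in that order.

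Cirbp and Rbm3 are small, glycine-rich proteins with a single RNA recognition motif, the fold by which many proteins grip single-stranded RNA. Both are known for rising when cells or brain tissue are cooled mildly and for falling with heat, the opposite of the heat shock chaperones that the transcription factor Hsf1 switches on. Cirbp is also known for following the daily rhythm of body temperature and for binding the messenger RNAs of clock genes, and Rbm3 for protecting synapses in cooled brain.

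Total counts lay between 19661878 and 26031517 per library. Neat1 averaged 5.01 ± 0.672 CPM (SD, n = 4), that is counts scaled to the size of the library, in the knockout and 95.1 ± 20.4 CPM with Neat1 intact (SD, n = 3), a log2 fold change of -4.25 (SE 0.15, adjusted p = 1.52e-08, edgeR quasi-likelihood test with Benjamini-Hochberg adjustment), and no Neat1-KO library (4.04 to 5.52 CPM) came near the Neat1-WT libraries (80.5 to 118 CPM). Markers of motor neurons, astrocytes, oligodendrocytes and microglia had counts in every library, whereas the summed level of 5 sensory ganglion markers stayed at or below 1.99 CPM. One library stood apart in its muscle markers, with 15.1 CPM summed in Neat1-WT replicate 4 and at most 2.69 CPM elsewhere. The sex of the mice is not in the labels, and Xist, transcribed from the inactive X chromosome, had 0 to 4 counts in each library. Time of day and body temperature at dissection are not given in the sources used here.

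Cirbp (ENSMUSG00000045193) lies on the plus strand at chr10:80165985-80172786 of GRCm38, the build also known as mm10, and no other gene overlaps it. Rbm3 (ENSMUSG00000031167) lies on the minus strand at chrX:8138975-8145880 and shares 94 exonic bases with the antisense gene Rbm3os on the plus strand, which had 91 to 260 counts per library. The annotation holds 7 transcript models of Cirbp, of which 2 are coding, 4 retain an intron and 1 is marked for nonsense-mediated decay, and 11 models of Rbm3, of which 6 are coding, 2 retain an intron, 2 are marked for nonsense-mediated decay and 1 is a noncoding processed transcript. Counts per gene sum over these models, so a shift between coding and decay forms could not be seen here.

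The 2 genes encode proteins of 172 residues (Cirbp-202) and 154 residues (Rbm3-201). Their coding sequences align from the first coding base over 255 bases without a gap, and 183 of those bases, or 71.8%, are identical. The stretch below is the window of 120 bases with the most identical bases in this shared part. It shows how closely related the genes are, and how well reads can be told apart, where the genes are most alike. It covers coding bases 7 to 126 of each gene from the GENCODE transcripts, 5′ to 3′, with the 88 bases that are identical between the genes in capitals.
Cirbp-202: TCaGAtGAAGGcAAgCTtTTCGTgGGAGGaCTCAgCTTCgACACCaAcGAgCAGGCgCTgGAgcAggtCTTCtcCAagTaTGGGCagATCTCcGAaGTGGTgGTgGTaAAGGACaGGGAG
Rbm3-201: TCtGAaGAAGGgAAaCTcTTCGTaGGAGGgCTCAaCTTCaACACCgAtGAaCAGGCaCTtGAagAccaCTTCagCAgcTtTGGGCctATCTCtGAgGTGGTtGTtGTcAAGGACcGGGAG
The differences are scattered through the stretch, and the longest run of identical bases between any transcript model of one gene and any of the other was 11 bases. Rbm3 has near copies elsewhere, and Cirbp has none by the same measure (at least 90% identity over at least 50% of the coding sequence). The processed pseudogenes Rbm3-ps, Gm10156 and Gm13624 match the whole Rbm3 coding sequence at 99.4%, 98.5% and 96.1% identity, and Phospho2 matches 65.6% of it at 97.0%. Over the 7 libraries the 3 pseudogenes took 51, 124 and 5 counts and Phospho2, a protein-coding gene, took 5539, against 6305 for Rbm3. Since only uniquely mapped reads were counted, reads from the shared stretches may be missing from Rbm3, and its level is uncertain to that extent.

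One promoter window of Cirbp is shown because it carries the letters of the mild-cold response element, an Sp1-bound motif known from work on this gene. It is the 250 bases before an annotated start of Cirbp, chr10:80167589-80167838 on the plus strand of GRCm38.p6, taken from RefSeq, with the motif matches in capitals.
Cirbp promoter: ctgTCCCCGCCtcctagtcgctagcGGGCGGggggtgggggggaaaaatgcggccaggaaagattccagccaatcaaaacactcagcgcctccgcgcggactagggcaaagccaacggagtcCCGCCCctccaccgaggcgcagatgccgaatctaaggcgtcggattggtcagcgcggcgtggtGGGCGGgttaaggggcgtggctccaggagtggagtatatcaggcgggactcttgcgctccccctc
The mild-cold response element, searched as TCCCCGCC on both strands, begins 247 bases before the start, and the GC box GGGCGG, which Sp1 is known to bind, occurs 3 times at 225, 128 and 65 bases before it, with no overlap between these matches. Neither the core of a heat shock element, GAANNTTC, nor the E-box CACGTG of the clock factors occurs in the window. Of 32851 promoter windows of the same length, 4.64% hold the mild-cold response element, 32.7% the GC box, 6.69% the heat shock core and 6.02% the E-box. A second Cirbp window holds 4 GC boxes and none of the other motifs. Rbm3 has no entry in the table of promoters.

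Cirbp stood at 50.7, 55.5, 40.6 and 62.7 CPM across the 4 Neat1-KO libraries, against 33.8, 36.8 and 38.6 CPM across the 3 Neat1-WT libraries. All 4 Neat1-KO libraries were above all 3 Neat1-WT libraries, with Neat1-KO replicate 4 the highest and Neat1-KO replicate 3 close to the controls. Neat1-KO averaged 52.4 ± 9.29 CPM (SD, n = 4) against 36.4 ± 2.44 CPM for Neat1-WT (SD, n = 3), and the fitted log2 fold change was 0.53 (SE 0.13), or 1.44-fold.

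Rbm3 stood at 47.0, 44.7, 34.0 and 57.5 CPM across the Neat1-KO libraries, against 31.6, 33.5 and 31.9 CPM across the Neat1-WT libraries. The order was nearly the same as for Cirbp, with Neat1-KO replicate 4 again highest and Neat1-KO replicate 3 barely above the controls. Neat1-KO averaged 45.8 ± 9.62 CPM (SD, n = 4) against 32.3 ± 1.04 CPM for Neat1-WT (SD, n = 3), with a fitted log2 fold change of 0.50 (SE 0.14), or 1.42-fold.

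**Figure D1:**
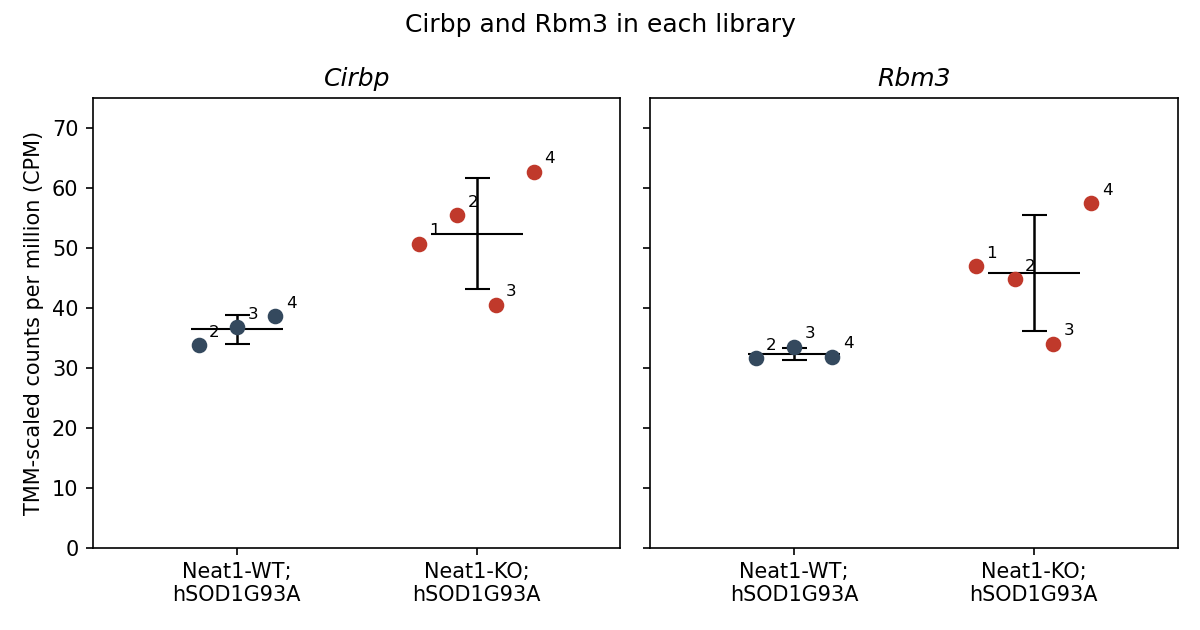
TMM-scaled CPM of Cirbp (left) and Rbm3 (right) in each library, where points are libraries numbered by replicate and the horizontal line and bars are the group mean and SD (n = 3 Neat1-WT, n = 4 Neat1-KO). Every Neat1-KO point lies above every Neat1-WT point, but replicate 3 does so by only 1.05-fold for Cirbp and 1.01-fold for Rbm3.

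The separation of the genotypes was thus set by the libraries at its edge. The lowest Neat1-KO library exceeded the highest Neat1-WT library by 1.05-fold for Cirbp (40.6 against 38.6 CPM) and by 1.01-fold for Rbm3 (34.0 against 33.5 CPM). The counting error for Cirbp was 3.38% in Neat1-KO replicate 3 and 3.63% in Neat1-WT replicate 4. For Rbm3 it was 3.69% in Neat1-KO replicate 3 and 3.73% in Neat1-WT replicate 3. Both errors enter each gap. The Rbm3 gap was smaller than either error alone. The Cirbp gap was larger than either error alone, but not larger than both errors combined. Among all 18449 genes tested, every Neat1-KO library was above every Neat1-WT library in 2.91% and below every one in 2.57%. A gene was called when its adjusted p was below 0.1 and its log2 fold change beyond 0.58 in either direction. Of all tested genes 0.0108% (2 genes) were called higher and 0.0217% lower in Neat1-KO, and Cirbp and Rbm3 were not among them. Both fitted log2 fold changes were under 0.58, but with no minimum of fold change the number called higher still stayed at 2. No p-value is given for either gene in this or any other fit. Leaving out Neat1-KO replicate 3 raised the log2 fold changes to 0.63 for Cirbp and 0.62 for Rbm3, and leaving out Neat1-KO replicate 4 lowered them to 0.43 and 0.37.

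Both genes varied more among the Neat1-KO libraries than among the Neat1-WT libraries. The coefficient of variation of Cirbp was 17.7% in Neat1-KO and 6.70% in Neat1-WT, and that of Rbm3 was 21.0% and 3.23%. Within Neat1-KO the highest library was 1.55-fold above the lowest for Cirbp and 1.69-fold for Rbm3. The counting error per library was between 2.47% and 3.66% for Cirbp and between 2.58% and 4.00% for Rbm3, so the spread within Neat1-KO was larger than counting gives and the spread of Rbm3 within Neat1-WT was not. Over all 7 libraries the SD of the log2 level lay at percentile 98.5 among 5464 genes of similar level for Cirbp and at percentile 98.3 among 5570 for Rbm3. This SD includes the genotype difference, and the pair was chosen on its levels in these libraries, so the percentiles are descriptions.

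Per exon length, Cirbp was the more abundant. Its level was 20.1 CPM per kilobase of exon (RPKM) in Neat1-KO and 14.0 RPKM in Neat1-WT, which put it at percentile 83.6 of the tested genes, and Rbm3 stood at 9.75 and 6.88 RPKM, percentile 68.1. On this per-length scale the level of Cirbp was 2.08 ± 0.141 times that of Rbm3 in Neat1-KO (SD, n = 4) and 2.03 ± 0.137 times in Neat1-WT (SD, n = 3). The ratio therefore differed between the genotypes by less than its spread within them, while the levels themselves spanned 1.85-fold for Cirbp and 1.82-fold for Rbm3 over the 7 libraries.

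The 2 genes rose and fell together from library to library. Over the 7 libraries, which share the genotype difference, Pearson's r between their log2 CPM was 0.96 and Spearman's rho was 0.93. With the mean of each genotype removed r was 0.92, a value to which the Neat1-WT libraries add little, since replicate 4 was highest of them in Cirbp but replicate 3 in Rbm3, over a narrow range. Without Neat1-KO replicates 4 and 2, the 2 libraries farthest from the median of Cirbp, r was 0.93 over the other 5.

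**Figure D2:**
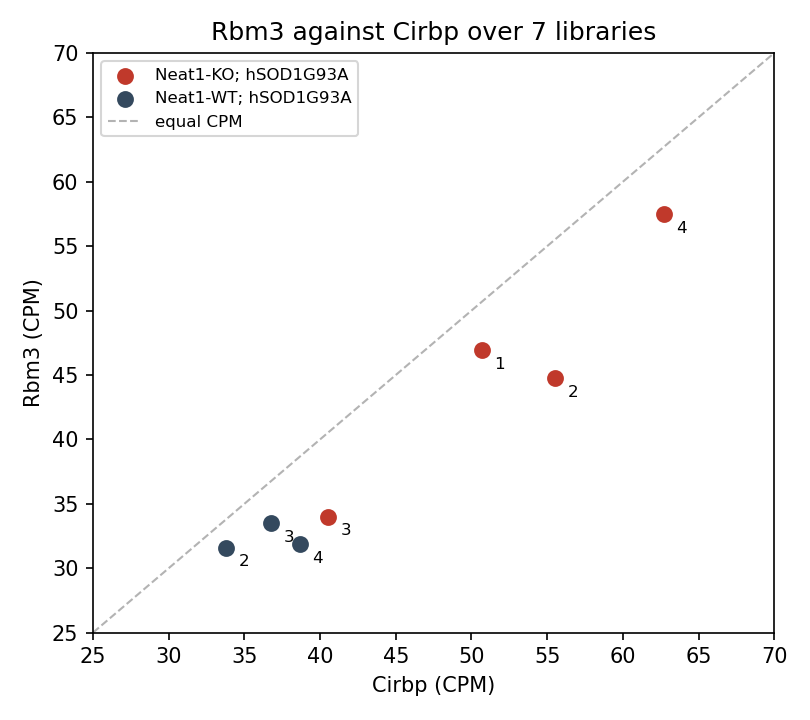
CPM of Rbm3 against CPM of Cirbp, with 1 point per library numbered by replicate, coloured by genotype, and a dashed line where both genes have equal CPM. The points fall just under the line, from Neat1-WT replicate 2 to Neat1-KO replicate 4, and Neat1-KO replicate 3 sits just above the Neat1-WT libraries on both axes.

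Across all 18448 other tested genes, Rbm3 was the 9th most like Cirbp by r, and Cirbp the 8th most like Rbm3. With genotype means removed the places were 88 and 69. The pair was chosen on its levels in these libraries, so the places are descriptions. The distribution of r over all genes was broad, as 7 points allow, with medians of 0.0245 for Cirbp and 0.0219 for Rbm3, 48.3% of genes negative with Cirbp and 48.6% negative with Rbm3.

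Among 12837 named genes with a mean of at least 5 CPM, the 5 closest to Cirbp were Coq8a, Tmem203, Rfx5, Sfxn5 and Ddx42, with r between 0.97 and 0.99. Coq8a, a mitochondrial protein needed to make coenzyme Q, came first with r = 0.99, although its own log2 fold change was only 0.16 (SE 0.08). Rfx5 is a transcription factor of the MHC class II genes and Ddx42 an RNA helicase. The 5 with the most opposite pattern were Ivns1abp, Caprin1, Pdia3, Mkks and Ctbp2, with r between -0.99 and -0.98. Caprin1 is an RNA-binding protein of stress granules, and Pdia3 is a disulfide isomerase that folds glycoproteins in the endoplasmic reticulum.

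For Rbm3 the 5 closest were Dgat2, Tgfb1i1, Gm10143, Dcaf8 and Prcd, with r between 0.97 and 0.99, and the 5 most opposite were Pak7, Kctd4, Etv1, Pde8a and Rap1gds1, with r between -0.99 and -0.96. Dgat2 makes triglycerides, Etv1 is an ETS transcription factor, Pak7 a protein kinase and Pde8a a phosphodiesterase that degrades cyclic AMP. Neither set of 10 shared a gene with the other. The adjusted p of the 20 genes between genotypes was 0.811 or more (edgeR quasi-likelihood test).

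The heat shock list held 24 genes, namely chaperones, co-chaperones and Hsf1 itself, and all 24 were tested. The study reported Hspa1a and Hspa1b as significantly lower from these same libraries, so the direction seen here is not independent evidence. By other methods it found both RNAs lower by quantitative PCR, and the HSPA1A protein lower by Western blotting and immunostaining. Every one of the 24 genes had a fitted value below 0 in Neat1-KO, with a median log2 fold change of -0.15 against 0.01 over all tested genes. Of the 24, 2 passed the test, both lower, and 0 passed higher. Of all 18449 tested genes 0.0217% were called lower and 0.0108% higher. DESeq2 called 3 of the 24 lower and 0 higher, against 14 lower and 13 higher over all genes. With limma 2 of the 24 were lower and 0 higher, against 4 and 2 over all genes. At an unadjusted p below 0.05 (edgeR quasi-likelihood test) there were 8 lower and 0 higher, against 442 lower and 414 higher of all 18449 tested genes. In 6 of the 24, Hspa1a, Hspa1b, Hspb1, Cryab, Bag3 and Hsp90ab1, the genotypes did not overlap and Neat1-KO was the lower, as in 2.57% of all tested genes.

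Hspa1b, one of the stress-inducible Hsp70 chaperones, stood at 3.19, 5.68, 4.78 and 4.35 CPM across the Neat1-KO libraries, against 9.28, 13.6 and 9.48 CPM across the Neat1-WT libraries. The groups did not overlap, and the log2 fold change was -1.25 (SE 0.20, adjusted p = 0.0888, edgeR quasi-likelihood test). Hspb1, the small heat shock protein Hsp27, stood at 28.7, 30.8, 31.6 and 28.3 CPM with Neat1 lost and at 45.3, 53.0 and 40.7 CPM with it intact. Its groups did not overlap either, with a log2 fold change of -0.63 (SE 0.10, adjusted p = 0.075, edgeR quasi-likelihood test). The call of Hspa1b was lost on leaving out replicate 3 or 4 of Neat1-KO or replicate 2 or 3 of Neat1-WT, and that of Hspb1 on leaving out replicate 2 or 4 of Neat1-KO or replicate 2 or 3 of Neat1-WT, with adjusted p in those fits from 0.157 to 0.926 and from 0.176 to 0.663. Over all alternatives the adjusted p ranged from 4.3e-10 to 0.926 for Hspa1b and from 2.83e-07 to 0.663 for Hspb1. Hspa1a, which encodes almost the same protein as Hspa1b and can share reads with it, had a log2 fold change of -0.65 (SE 0.14) that missed the threshold (adjusted p = 0.485, edgeR quasi-likelihood test). It was called with DESeq2 (adjusted p = 0.036) and by edgeR with no filter on low counts (adjusted p = 0.0132), within a range of 0.0132 to 1 over all alternatives.

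**Figure D3:**
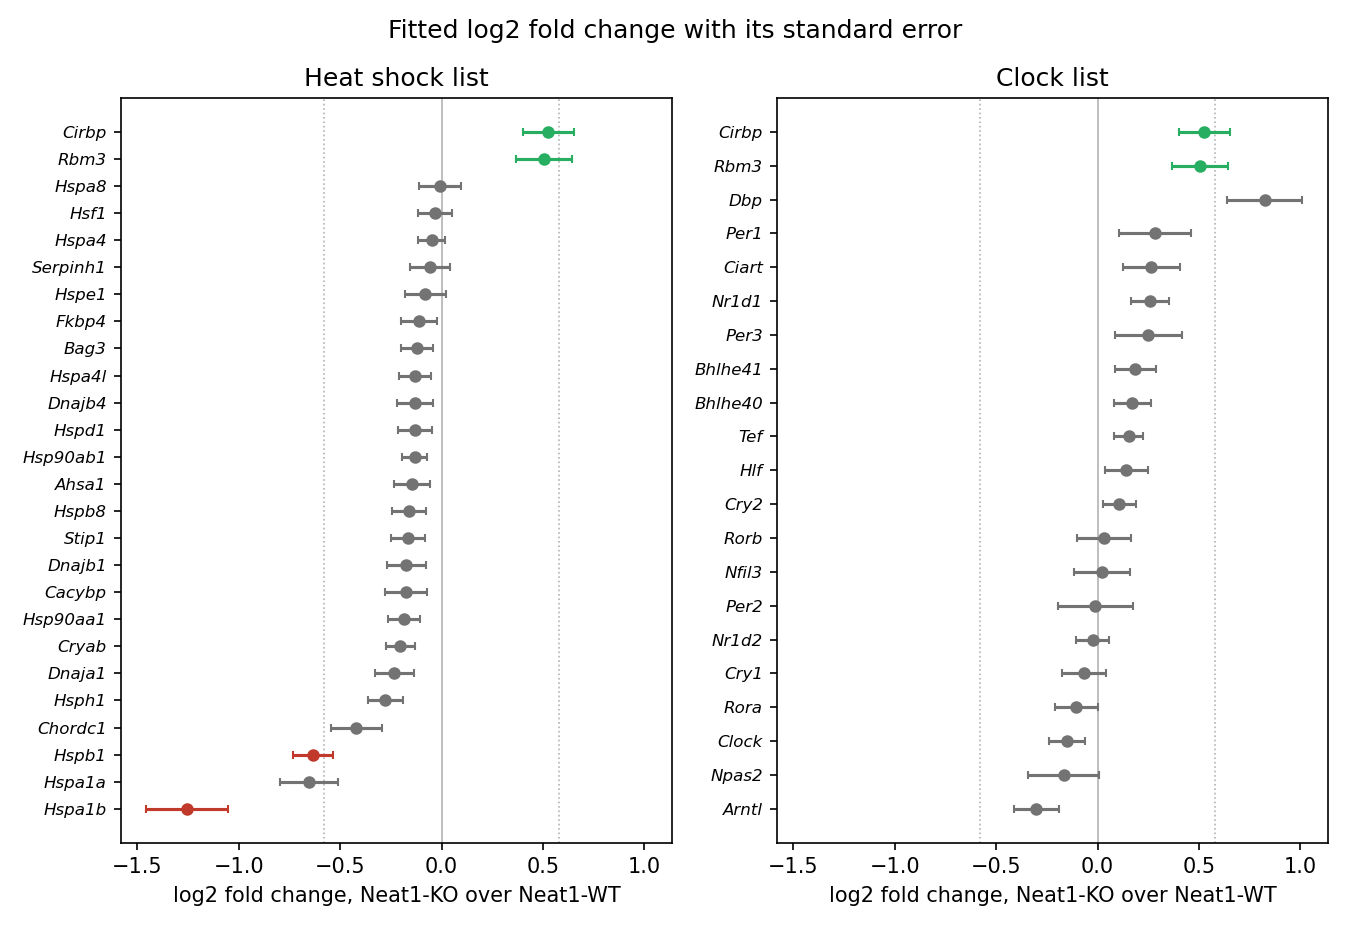
Fitted log2 fold change of Neat1-KO over Neat1-WT with its standard error for the 24 heat shock genes (left) and the 19 clock genes (right), with Cirbp and Rbm3 in green on top, called genes in red and dotted lines at 0.58 in either direction. All 24 heat shock genes lie below 0, Hspa1b and Hspb1 beyond the line and called, while the clock genes lie on both sides and Dbp is farthest right.

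All 24 heat shock genes had a negative r with Cirbp and with Rbm3 over the 7 libraries, the pattern on which the pair was chosen. Without Neat1-WT replicate 2 this held for 23 with Cirbp and 22 with Rbm3, and without Neat1-KO replicate 4 for 23 with Rbm3. The median r was -0.76 with Cirbp, from -0.93 for Chordc1, a co-chaperone of Hsp90, to -0.28 for Hspa8, the constitutive Hsp70. With Rbm3 the median was -0.66. With genotype means removed the medians were -0.58 and -0.33, and 22 and 20 of the 24 stayed negative. Leaving out each library in turn kept the median between -0.78 and -0.70 for Cirbp and between -0.72 and -0.60 for Rbm3.

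Hspa1b, Hspa1a and Hspb1, the heat shock genes that differed most between genotypes, were not those that followed Cirbp most closely within a genotype. With genotype means removed, r with Cirbp was 0.046 for Hspa1b, -0.048 for Hspa1a and -0.37 for Hspb1. By contrast it was -0.87 for Dnajb4, -0.84 for Chordc1, -0.79 for Dnaja1 and -0.71 for Hsph1, co-chaperones and an Hsp110 whose log2 fold changes between genotypes were -0.13, -0.42, -0.23 and -0.28 and did not pass the test (adjusted p from 0.84 to 0.992, edgeR quasi-likelihood test). The contrast is limited, since Chordc1, Hsph1 and Dnaja1 had the next largest log2 fold changes of the list. With Rbm3, again with genotype means removed, r was -0.14 for Hspa1b, -0.069 for Hspa1a and -0.30 for Hspb1. It was lowest for Hsf1 (-0.76) and Hspb8 (-0.75). Whether these r values differ from each other was not tested.

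Chordc1 shows the pattern library by library, with 76.1, 57.0, 85.6 and 63.4 CPM across the Neat1-KO libraries against 103, 95.6 and 84.4 CPM across the Neat1-WT libraries. Neat1-KO replicates 2 and 4, the highest in Cirbp, were the lowest in Chordc1, and Neat1-KO replicate 3, the lowest Neat1-KO library in Cirbp, reached into the Neat1-WT range. Averaged over the 24 genes, the log2 level relative to the Neat1-WT mean was -0.22, -0.28, -0.15 and -0.29 in Neat1-KO replicates 1 to 4 and 0.05, 0.06 and -0.11 in Neat1-WT replicates 2 to 4. Neat1-KO replicate 3 and Neat1-WT replicate 4 were thus the closest across genotypes in the heat shock genes, as they were in Cirbp.

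**Figure D4:**
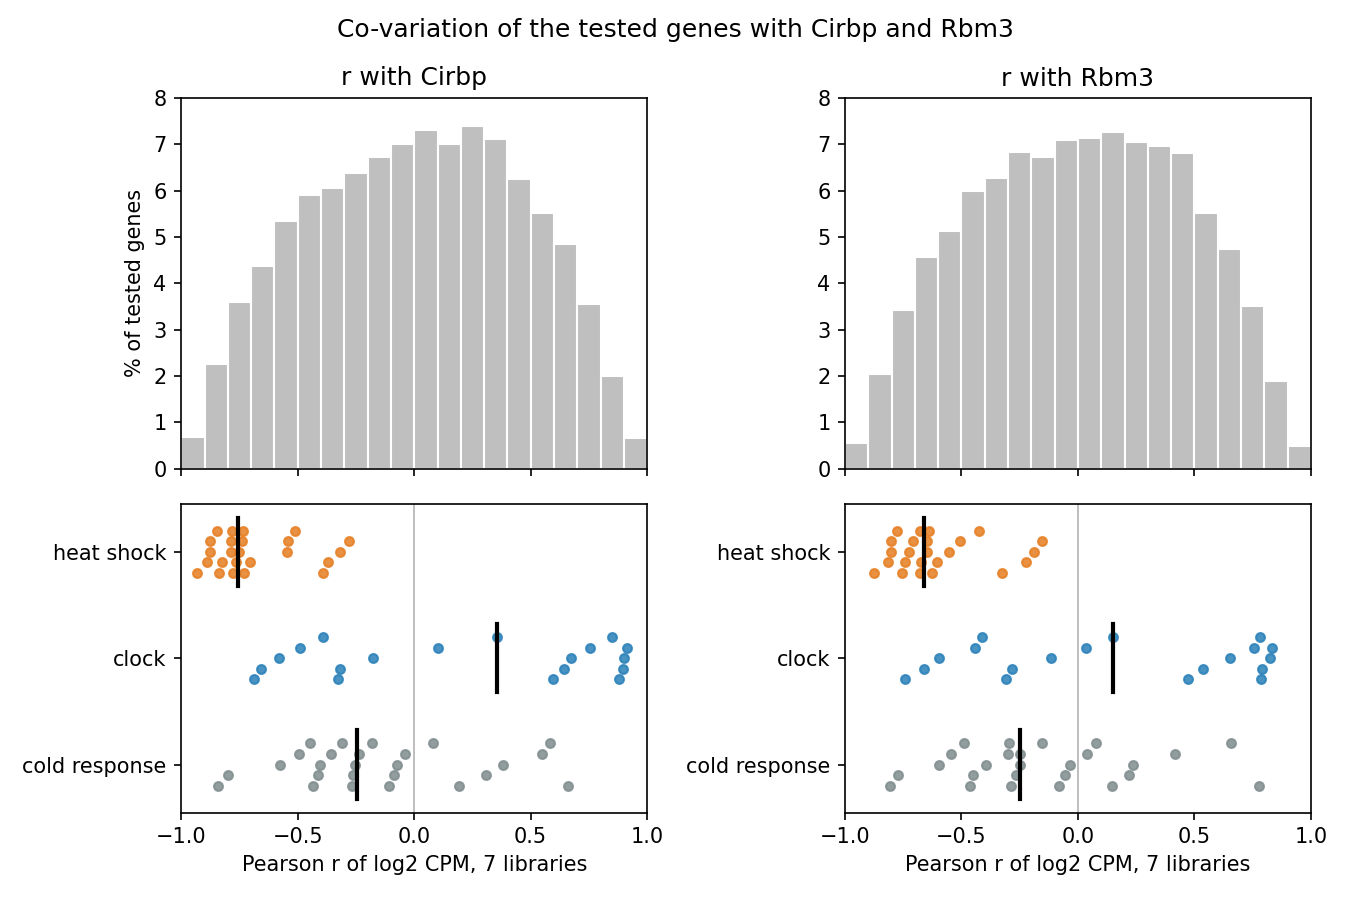
Top, share of the tested genes in each interval of 0.1 of Pearson's r with Cirbp (left) or Rbm3 (right) over 7 libraries. Bottom, r of each gene of the heat shock list, the clock list and the cold-response list, with black bars at the medians. The heat shock genes all lie below 0 with medians of -0.76 and -0.66, whereas both other lists hold genes of either sign.

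No gene of the clock list passed the test among the 19 tested, against 0.0108% called higher and 0.0217% lower of all 18449 tested genes. In Neat1-KO 12 of the 19 were fitted above and 7 below 0 (median log2 fold change 0.11). At an unadjusted p below 0.05 there were 2 higher and 1 lower, against 414 and 442 of all tested genes (edgeR quasi-likelihood test). DESeq2 and limma also called 0. In 2 of the 19, Dbp and Nr1d1, every Neat1-KO library was above every Neat1-WT library, as in 2.91% of all tested genes, and in 0 was every one below. Dbp, a transcription factor driven directly by the clock, stood at 47.4, 80.7, 54.6 and 90.6 CPM across the Neat1-KO libraries, against 36.1, 38.7 and 41.3 CPM across the Neat1-WT libraries. Its log2 fold change was 0.82 (SE 0.19, adjusted p = 0.485, edgeR quasi-likelihood test). Without Neat1-KO replicate 1, its lowest Neat1-KO library, Dbp passed the edgeR test (adjusted p = 0.0204, within a range of 1.85e-13 to 1 over all alternatives). Nr1d1, the repressor Rev-erb alpha, had a log2 fold change of 0.26 (SE 0.09, adjusted p = 0.992).

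Several clock-driven genes followed Cirbp closely, and others did not. The highest r with Cirbp in the list was 0.91 for Dbp, then 0.90 for Nr1d1, 0.89 for Tef, 0.88 for Bhlhe40 and 0.85 for Cry2. The corresponding r with Rbm3 was 0.82, 0.83, 0.78, 0.79 and 0.79. With genotype means removed they lay between 0.74 and 0.85 with Cirbp and between 0.50 and 0.69 with Rbm3. Nr1d2 and Hlf had r of only -0.49 and 0.36 with Cirbp, or -0.64 and 0.026 with genotype means removed. Clock and Arntl, the activators of the loop, went the other way with r of -0.69 and -0.66 with Cirbp, and for Arntl the value was -0.013 with genotype means removed. The period genes did not move as one, with r of 0.64 for Per1 and 0.10 for Per2. Over the whole clock list the median r was 0.36 with Cirbp and 0.15 with Rbm3, and 8 of 19 were negative with each.

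The promoters of the listed genes were searched in the same way. The heat shock core GAANNTTC was in the promoter windows of 7 of 19 heat shock genes with an entry (36.8%), in 0 of 17 clock genes with an entry and in neither Cirbp window. The E-box CACGTG was in 5 of 17 clock genes (29.4%), in 2 of 19 heat shock genes (10.5%) and in neither Cirbp window. Over all genes with an entry, 7.73% held the heat shock core and 6.86% the E-box in any window. The mild-cold response element was in 5 of 19 heat shock genes (26.3%) and 2 of 17 clock genes (11.8%), against 5.37% of all genes. The GC box was in 84.2% and 88.2% of them, against 35.4% of all genes.

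The cold-response list held 27 genes known to act on Cirbp or Rbm3 or to be acted on by them, of which 26 were tested. None was called (adjusted p of 0.992 or more by edgeR, 0 at an unadjusted p below 0.05, and 0 called by DESeq2 or limma). Of all 18449 tested genes, edgeR called 0.0108% higher and 0.0217% lower. Trem1, a receptor for extracellular Cirbp on myeloid cells, had 0 counts in all 7 libraries, which allows up to 0.153 CPM (3 counts in the smallest library). The median log2 fold change over the 26 was -0.03, and every Neat1-KO library was above every Neat1-WT library in 1 of them, as in 2.91% of all tested genes. This was Prmt1, an arginine methyltransferase that modifies Cirbp.

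Of the 7 regulators, Hnrnph1, a splicing factor known to act on the decay exon of Rbm3, was the most opposite to both genes, with r of -0.80 with Cirbp and -0.77 with Rbm3, and -0.86 and -0.76 with genotype means removed. Its levels were 147, 133, 177 and 142 CPM across the Neat1-KO libraries, against 163, 160 and 159 CPM across the Neat1-WT libraries. The highest Hnrnph1 level of all 7 libraries was thus in Neat1-KO replicate 3, the Neat1-KO library lowest in Rbm3, and the genotypes overlapped (log2 fold change -0.10, SE 0.09). The temperature-sensitive splicing kinases Clk1 and Clk4 had r of -0.49 and -0.58 with Cirbp and -0.60 and -0.55 with Rbm3. Sp1, which binds the mild-cold response element, had r of -0.09 with Cirbp and a log2 fold change of -0.01 (SE 0.10). Tnpo1, which carries Cirbp into the nucleus, had r of -0.26 and a log2 fold change of -0.02 (SE 0.14).

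The list also held 10 genes that Cirbp or Rbm3 is known to act on or that belong to the TrkB pathway upstream of Rbm3, of which 5 were fitted above and 5 below 0, with a median log2 fold change of -0.0015. Rtn3, the reticulon through which Rbm3 is known to protect synapses, averaged 1225 ± 40.0 CPM in Neat1-KO (SD, n = 4) against 1205 ± 57.7 CPM for Neat1-WT (SD, n = 3), a difference smaller than its spread. Ntrk2, the BDNF receptor TrkB that acts upstream of Rbm3 in cooled brain, was at 411 ± 31.5 and 411 ± 9.06 CPM. Txn1, a messenger RNA bound by Cirbp, had a log2 fold change of -0.05 (SE 0.10). Creb1, the cyclic AMP response factor, had the lowest r of these 10, with r of -0.84 with Cirbp and -0.81 with Rbm3, and a log2 fold change of -0.17 (SE 0.10). Of the receptor genes, Ly96, a partner of Tlr4, had r of 0.78 with Rbm3 but only 5 to 21 counts per library.

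The 7 relatives, cold shock domain and related RNA-binding proteins, were all fitted below 0, and none passed the test. Rbmx and Ybx1 had log2 fold changes of -0.04 (SE 0.08) and -0.07 (SE 0.08). The r of the 7 relatives with Cirbp lay between -0.45 and -0.18.

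Other measures moved with both genes across the libraries. The share of counts in ribosomal RNA genes was 0.188% to 0.309% in Neat1-KO and 0.149% to 0.180% in Neat1-WT, without overlap, and its r was 0.81 with Cirbp and 0.83 with Rbm3, or 0.50 and 0.59 with genotype means removed. The summed level of 6 motor neuron markers was 278 to 338 CPM in Neat1-KO and 360 to 428 CPM in Neat1-WT, again without overlap, with r of -0.85 with Cirbp and -0.71 with Rbm3, or -0.57 and -0.29 with genotype means removed. All 6 motor neuron markers, Chat among them, were fitted below 0, with adjusted p of 0.84 or more (edgeR quasi-likelihood test). Of the 6, 3 were lower at an unadjusted p below 0.05 in that test, against 442 of all 18449 tested genes. Total counts had r of 0.59 and 0.58 with the members, and the share of mitochondrial counts -0.61 and -0.48. The summed level of 5 oligodendrocyte markers was 31857 to 34818 CPM in Neat1-KO and 33408 to 40947 CPM in Neat1-WT, with r of -0.58 with Cirbp and -0.69 with Rbm3, or -0.097 and -0.39 with genotype means removed. All 5 were fitted below 0, with adjusted p of 0.986 or more (edgeR quasi-likelihood test), and in Mobp, a myelin protein gene, the genotypes did not overlap. The part of these measures in the levels of Cirbp and Rbm3 was not tested.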

How the data were processed

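RNA from 7 cervical spinal cords was made into poly(A)-selected, directional, paired-end libraries. According to the submitters' processing notes, the tools were FastQC 0.11.7, Trimmomatic 0.38, HISAT2 2.1.0, SAMtools 1.9 and featureCounts 1.6.3 on mm10. The authors deposited raw counts of uniquely mapped reads per gene, without normalization. The annotation release and the strand setting of the counting are not given in the sources used here, so reads of Rbm3 and Rbm3os may not be told apart.

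Genes were named from GENCODE M21 (55141 of 55487 matched), and unnamed rows held 0.00446% of counts. Genes were filtered with filterByExpr, scaled by TMM and tested in all 7 libraries with the quasi-likelihood test of edgeR 4.0.16 (R 4.3.3). The scripts were tested on simulated data. DESeq2 1.42.0 and limma 3.58.1 were among the alternatives. Correlations used log2 CPM with a prior count of 2. RPKM used the union of exons. Counting errors are those of a Poisson count. Motifs were searched on both strands of RefSeq promoters of 250 bases, and near copies with BLAST 2.17.0.

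The members, gene lists and tests were chosen with earlier results of these data known. Named genes were the members, Neat1, every called listed gene, a fixed set of 25 listed genes (1 of them is not reported here), and the 5 highest and 5 lowest r for each member. Other listed genes were named after their values were seen. The p-values measure the spread between these mice only.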

Additional observations from a re-analysis of the deposited data

How the results depend on the processing

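The log2 fold changes of Cirbp (0.43 to 0.63) and Rbm3 (0.37 to 0.64), their r with each other (0.92 to 0.98) and the median r of the heat shock list with Cirbp (-0.80 to -0.58) and Rbm3 (-0.72 to -0.33) kept their sign under every alternative run, and that of Neat1 (-4.35 to -4.06) also its call. The exclusion of the 2 libraries farthest from the median of Cirbp was chosen after seeing the data. Counts of calls moved more, and the cause was not tested. The count over all genes rose from 6 to 124 with no filter on low counts, 27 with DESeq2 and 39 with the replicate block, and ranged from 3 (without Neat1-WT replicate 3) to 31 (without Neat1-KO replicate 1) when 1 library was left out. The heat shock count of 2 fell to 0 with Xist as a covariate, which rests on 0 to 4 counts per library, and to 0 at adjusted p under 0.05, rose to 3 with DESeq2 and with no filter, and ranged from 0 to 2 when 1 library was left out. The clock count rose from 0 to 1, which is Dbp, with no filter and with the replicate block, and ranged from 0 to 1. The cold-response count stayed at 0 under all 18 alternatives.

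Same-numbered libraries did not deviate together (r of -0.20, -0.12 and -0.015 for numbers 2, 3 and 4), so the numbers were not taken to pair the mice, and the block gave 0.52 for Cirbp and 0.46 for Rbm3.

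Uncalled genes near 0 changed sign. With Xist as a covariate the log2 fold changes were 0.037 for Hspa8, 0.077 for Sp1, 0.0273 for Clk1, 0.0271 for Clk4, 0.14 for Tnpo1, -0.0011 for Ntrk2 and 0.34 for Per2. With the replicate block they were 0.033 for Hspa8, 0.039 for Sp1, 0.055 for Tnpo1 and 0.11 for Per2. With limma-voom they were 0.0058 for Hspa8 and -0.00094 for Ntrk2, which was also at -0.0045 with median-of-ratios factors, -0.0022 with no filter and -0.0044 with DESeq2. Leaving out 1 library gave -0.11 to 0.16 for Hspa8, -0.075 to 0.092 for Sp1, -0.13 to 0.022 for Clk4, -0.15 to 0.12 for Tnpo1, -0.016 to 0.051 for Rtn3, -0.039 to 0.045 for Ntrk2, -0.12 to 0.027 for Txn1, -0.088 to 0.019 for Rbmx and -0.17 to 0.12 for Per2.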
